A study of Mus musculus with 63 samples.

Results

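The interferon-γ label was compared in peritoneal macrophages of old female R1441C Lrrk2 knock-in mice, with 10 of the 63 libraries of the series. The groups were taken from the names of the count columns: 5 libraries were labelled as treated with interferon-γ (IFN-labelled) and 5 as untreated. The mice carried the R1441C change in their own Lrrk2 gene and were 18 to 21 months old. Macrophages were elicited with 3% thioglycollate broth, drawn 72 h later, left to adhere and given 100 U of interferon-γ or its vehicle, water, for 18 h, and the mice had received buprenorphine against pain. Both groups therefore share the knock-in allele, the thioglycollate and the culture, by their labels. Wild-type F old libraries, of the B6 background, served for a comparison of label effects (5 IFN-labelled and 5 untreated), as did knock-in M old libraries (5 IFN-labelled and 3 untreated). One label field of the 3 untreated knock-in M old libraries gives the interferon treatment while their titles and descriptions give none, and they were grouped by the titles. Nothing in the labels says whether replicates came from separate animals, so the spread between libraries may be technical. The p-values and standard errors rest on a spread estimated over all 63 libraries, not over these 10 alone.

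Interferon-γ binds a receptor that signals through the kinases JAK1 and JAK2. In macrophages it is known to raise guanylate-binding proteins, the chemokines Cxcl9 and Cxcl10, inducible nitric oxide synthase and the genes of antigen presentation. Lrrk2 encodes leucine-rich repeat kinase 2, a kinase of Rab proteins on endolysosomal membranes. R1441C lies in its GTPase domain and is linked to inherited Parkinson's disease. Elicited peritoneal macrophages are largely recruited monocyte-derived cells, and a lavage also brings B cells, T cells, granulocytes and mesothelial cells, some of which stay after adhesion. Gene counts do not show the R1441C change itself.

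The 10 libraries held between 95.04 and 102.2 M counts over genes. Of 56748 genes in the table, 22147 passed the filter on low counts and were tested. Values below are counts-per-million values of the scaled library (CPM), given in the order of replicates 1 to 5. A log2 change is IFN-labelled over untreated, and ± after it is its standard error. A gene was called at a Benjamini-Hochberg adjusted p under 0.05 in edgeR's quasi-likelihood test over all genes tested.

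Some libraries stood apart or stood too close before any comparison was made. Xist, the RNA of the inactive X chromosome, had 205, 208, 173, 1.69 and 1.55 CPM in IFN-labelled libraries, against 502, 382, 301, 131 and 150.2 CPM in untreated libraries. IFN-labelled replicates 4 and 5 were thus far below the 120.1 CPM that was the lowest value of any other library labelled F. Ddx3y, a gene of the Y chromosome, had 0.0298, 0.0301, 0.132, 0.624 and 0.601 CPM in IFN-labelled libraries, against 0.164, 0.4002, 0.286, 0.0731 and 0.4499 CPM in untreated libraries, and no library labelled M was below 33.9 CPM. The identity of IFN-labelled replicates 4 and 5 is in doubt, and the calls are given with and without them; "without replicates 4 and 5" refers to these IFN-labelled libraries. A likeness index was computed for each pair of libraries as the median squared difference in counts over that of sampling noise, so that 1 stands for sampling noise alone. The index was 3.46 between IFN-labelled replicates 1 and 2, the lowest of all pairs of the series, whose median was 53.8. It was 4.42 between IFN-labelled replicates 4 and 5, 7.73 between IFN-labelled replicates 1 and 3, 6.68 between untreated replicates 2 and 3 and 9.97 between untreated replicates 4 and 5. Untreated replicates 4 and 5 had their lowest index with untreated wild-type females, at 7.55 and 7.98. No pair came down to sampling noise, and no libraries were merged in the main fit. An index above 1 does not show that a pair came from separate animals. The results with close libraries summed are given below.

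Immunoglobulin V segments, which differ between B cell clones and therefore between mice, gave a second view of the same libraries. Igkv6-15 took 25.6% and 25% of V segment counts in IFN-labelled replicates 1 and 2, and Igkv17-127 took 16.3% and 16.6% there. In IFN-labelled replicate 3 the leading segment was Igkv17-127 with 48.8%. Across 152 segments the usage of IFN-labelled replicates 1 and 2 had a Pearson correlation of 1.00, against 0.45 and 0.46 between replicate 3 and those libraries and 0.90 between replicates 4 and 5. IFN-labelled replicates 1 and 2 had 0.51 with untreated replicate 1, and pairs of untreated libraries had 0.64 to 0.95, which is a description over segments within libraries. Whether replicates 1 and 2 share an animal was not tested.

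**Figure D1:**
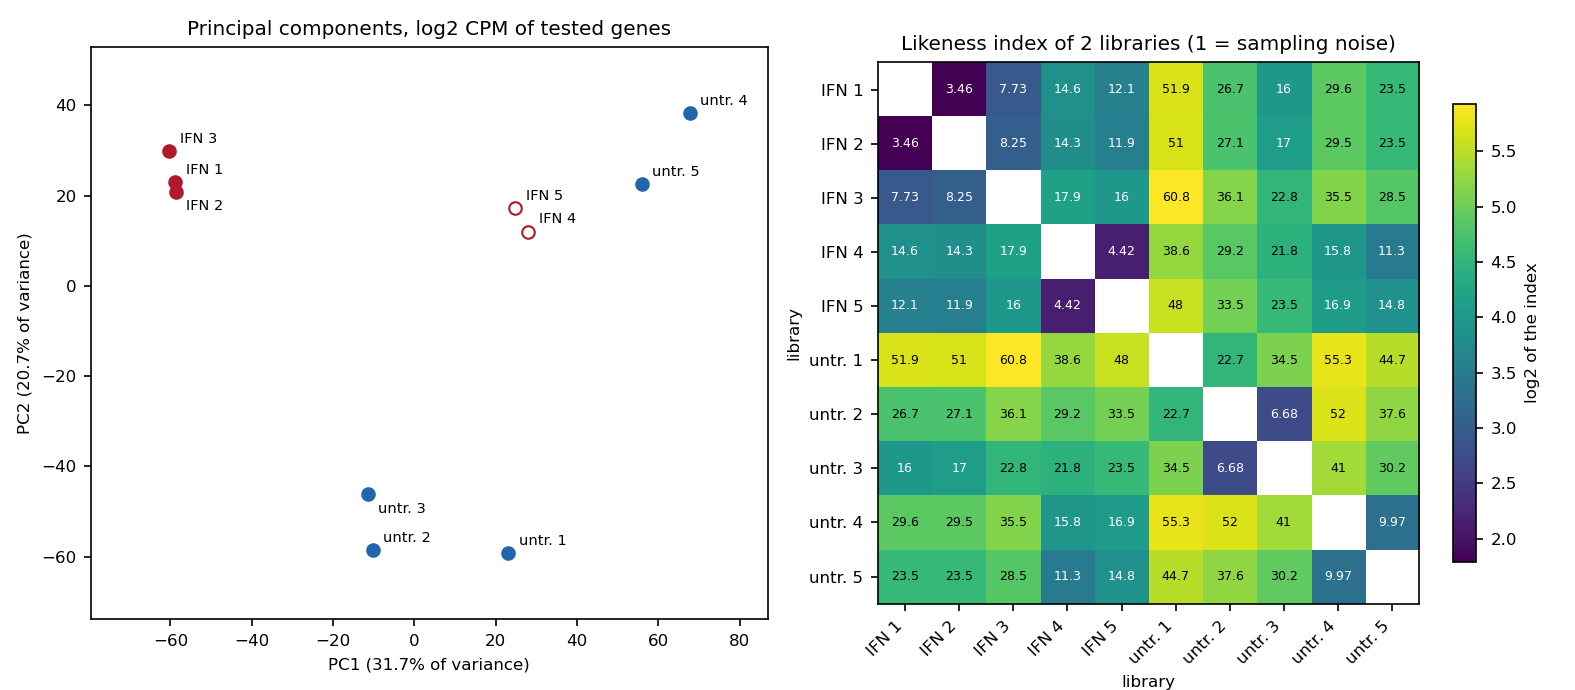
Left, the 10 libraries on the first principal components of log2 CPM (31.7% and 20.7% of the variance), with open symbols for IFN-labelled replicates 4 and 5. Right, the likeness index of each pair of libraries, where 1 is sampling noise. IFN-labelled replicates 1 to 3 lie together at -58.8, -58.7 and -60.3 on the first component, while IFN-labelled replicates 4 and 5 lie at 28 and 24.8, between untreated replicate 1 at 23.1 and untreated replicates 4 and 5 at 67.7 and 55.9.

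No gene of the listed interferon-γ response was called for the label. Gbp2, a guanylate-binding protein, had 5734, 6036, 5697, 5673 and 5794 CPM in IFN-labelled libraries, against 5980, 5701, 5850, 6236 and 6396 CPM in untreated libraries. The groups overlapped, the fitted log2 change was -0.06 ± 0.47 (adjusted p = 0.961), and every library labelled old in the series held at least 4372 CPM whatever its treatment label, while the 27 young libraries held 13.5 to 883 CPM. Cxcl9 had 2772, 2814, 3271, 1716 and 1710 CPM in IFN-labelled libraries, against 2417, 2431, 2425, 952 and 1253 CPM in untreated libraries, with IFN-labelled replicates 4 and 5 and untreated replicates 4 and 5 the lowest of their groups (adjusted p = 0.793). Nos2, inducible nitric oxide synthase, had 428, 426, 764, 126 and 129.5 CPM in IFN-labelled libraries, against 496, 622, 599.8, 65.97 and 120.4 CPM in untreated libraries, and its spread within each group exceeded the difference between them (log2 change -0.02 ± 0.83, adjusted p = 0.997). Of the 37 interferon-γ response genes listed, none was called in either direction, where all genes gave 5.81%. The labels did not overlap in 6 of the 37, beside 4.37% of all genes. The list had a median log2 change of 0.07, or 0.13 without IFN-labelled replicates 4 and 5, against -0.01 and -0.02 over all genes tested. All 1286 genes called for the label lay outside this list. Calls elsewhere do not show that the test could find changes in these 37 genes.

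Lrrk2 itself had 111, 108, 127, 105 and 96.1 CPM in IFN-labelled libraries, against 269, 166, 137, 80.2 and 116 CPM in untreated libraries. Untreated replicate 1 was the highest library and untreated replicate 4 the lowest, so the groups overlapped and the change was not called (log2 change -0.49 ± 0.23, adjusted p = 0.198; -0.41 ± 0.28, adjusted p = 0.388 without replicates 4 and 5). Macrophage genes stood at similar levels under both labels. The surface marker Adgre1 (F4/80) had medians of 640 CPM in IFN-labelled and 671 CPM in untreated libraries, Csf1r, the receptor of the macrophage growth factor, 1040 and 1140 CPM, and the lysosomal marker Cd68 1740 and 1400 CPM. None of the 14 macrophage identity genes was called, with a median log2 change of 0.01.

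Across all genes 1286 of 22147 (5.81%) were called, 536 higher in IFN-labelled libraries (2.42%) and 750 lower (3.39%). Without IFN-labelled replicates 4 and 5, 1464 of 22132 genes (6.61%) were called, 675 higher (3.05%) and 789 lower (3.56%). The same 930 genes were called both ways, all in the same direction, which is 72.3% of the calls with all libraries and 63.5% of those without the pair. The count rested on single libraries: it was 533, 503 and 385 without IFN-labelled replicate 1, 2 or 3, 431 and 761 without untreated replicate 1 or 2 and 1986 without untreated replicate 4. It fell to 268 when libraries with an index under 5 were summed, to 119 when the fit held only these 10 libraries and to 2 when libraries with an index under 10 were summed, leaving 2 IFN-labelled and 3 untreated libraries. In 967 genes (4.37%), all 5 IFN-labelled values lay on one side of all 5 untreated values.

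Among macrophage genes Mgl2 was called under all settings tried except 1. It encodes the C-type lectin CD301b of alternatively activated macrophages. Mgl2 had 1.11, 0.944, 0.935, 0.931 and 1.06 CPM in IFN-labelled libraries, against 2.54, 2.02, 1.88, 8.19 and 6.14 CPM in untreated libraries. All 5 IFN-labelled libraries were near 1 CPM and below all untreated libraries, of which replicates 4 and 5 were highest (log2 change -2.06 ± 0.33, adjusted p = 0.000119; -2.06 ± 0.41, adjusted p = 0.00122 without replicates 4 and 5). The call was kept with each library left out in turn, with adjusted p from 7.07e-08 to 0.52 over all settings, the highest being the exception, the sums of libraries with an index under 10. Within replicates 1 to 3 of both labels the log2 change of Mgl2 was -1.11 (adjusted p = 0.0397). Other genes of alternative activation followed the same order in part. Mrc1, the mannose receptor, had 48.8, 47.8, 32.97, 54.3 and 52.2 CPM in IFN-labelled libraries, against 115, 70.4, 63.2, 120.0 and 94.8 CPM in untreated libraries. Its groups did not overlap, but the call (log2 change -0.97 ± 0.31, adjusted p = 0.0482) ended without IFN-labelled replicates 4 and 5 (adjusted p = 0.0607) and with 9 of the 10 single libraries left out, at adjusted p up to 0.172. Retnla, a secreted protein of such macrophages, had 6.12, 6.14, 14.4, 8.55 and 9.27 CPM in IFN-labelled libraries, against 16.6, 16.4, 17.6, 41.7 and 25.6 CPM in untreated libraries. Again no value overlapped, yet the change was not called (log2 change -1.41 ± 0.52, adjusted p = 0.0921; -1.41 ± 0.64, adjusted p = 0.172 without replicates 4 and 5), and the same held for the chemokine Ccl24 (log2 change -1.95 ± 0.63, adjusted p = 0.0507; -1.75 ± 0.76, adjusted p = 0.149 without replicates 4 and 5). Ear2, a ribonuclease of eosinophils and macrophages, fell in the fit (log2 change -1.20 ± 0.31, adjusted p = 0.0189; -1.83 ± 0.36, adjusted p = 0.00116 without replicates 4 and 5) although IFN-labelled replicates 4 and 5 overlapped the untreated libraries. Ear2 was not called without IFN-labelled replicate 1, 2 or 3 or untreated replicate 4 (adjusted p 0.0676 to 0.0961). In all, 3 of 20 tested members of the alternative activation and arginine list were called lower and none higher, where all genes gave 3.39% and 2.42%. The list had a median log2 change of -0.47, or 2 called lower and a median of -0.22 without IFN-labelled replicates 4 and 5.

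Klf2 and other early-response genes were higher under the IFN label. Klf2, a transcription factor known to restrain macrophage activation, had 44.9, 43.2, 47.1, 35.5 and 35.6 CPM in IFN-labelled libraries, against 15.1, 19.9, 22.6, 23.3 and 27.4 CPM in untreated libraries. Every IFN-labelled library exceeded every untreated one, with replicates 1 to 3 highest (log2 change 0.93 ± 0.19, adjusted p = 0.00238; 1.05 ± 0.21, adjusted p = 0.00121 without replicates 4 and 5). Klf2 stayed called with each library left out in turn, but not in 2 of the other settings tried. Nfkbia, the inhibitor that holds NF-κB in the cytoplasm, had 138, 126, 174, 114 and 116 CPM in IFN-labelled libraries, against 96.05, 96.2, 105, 90.7 and 94.9 CPM in untreated libraries. The groups did not overlap and replicate 3 was the highest library (log2 change 0.47 ± 0.14, adjusted p = 0.0342; 0.59 ± 0.15, adjusted p = 0.0138 without replicates 4 and 5). Nfkbia was not called without IFN-labelled replicate 1, 2 or 3 or untreated replicate 1 or 2 (adjusted p 0.0581 to 0.157). Irak2, a kinase of Toll-like receptor signalling, had 93.5, 90.9, 112, 102 and 102 CPM in IFN-labelled libraries, against 75.4, 81.7, 86.8, 73.5 and 86.1 CPM in untreated libraries. All IFN-labelled values were above all untreated values (log2 change 0.31 ± 0.07, adjusted p = 0.00482; 0.29 ± 0.08, adjusted p = 0.02 without replicates 4 and 5). Irak2 stayed called with each library left out in turn, but not in 5 of the other settings tried. Of the 26 NF-κB feedback and early-response genes 4 were called higher and none lower, where all genes gave 2.42% higher, with a median log2 change of 0.26. The count was 3 without IFN-labelled replicates 4 and 5. Not every called gene named in this paragraph is a member of that list. The immediate-early gene Ier2 (log2 change 0.39 ± 0.12, adjusted p = 0.0447) and the transcription factor Klf4 (log2 change 0.42 ± 0.13, adjusted p = 0.0459) were called too. Neither call held without IFN-labelled replicates 4 and 5 (adjusted p = 0.136 and 0.169) or in 8 of the 10 fits that left out a library. Socs3, which limits cytokine receptor signalling, did not overlap between labels and was not called (log2 change 0.43 ± 0.15, adjusted p = 0.0771; 0.48 ± 0.18, adjusted p = 0.0871 without replicates 4 and 5).

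Among cytokines 3 of 28 tested genes were called higher and 1 lower, where all genes gave 2.42% and 3.39%. The counts were 4 and 0 without IFN-labelled replicates 4 and 5. Ebi3, a subunit of interleukin-27, had 15.5, 14.1, 20.5, 13.9 and 14.2 CPM in IFN-labelled libraries, against 11.1, 11.7, 11.97, 12.6 and 13.7 CPM in untreated libraries, and replicate 3 stood above the rest (log2 change 0.36 ± 0.11, adjusted p = 0.0457; 0.45 ± 0.13, adjusted p = 0.0242 without replicates 4 and 5). Ebi3 was not called without IFN-labelled replicate 1, 2 or 3 or untreated replicate 1, 2 or 3 (adjusted p 0.0539 to 0.231). Lif, leukaemia inhibitory factor, had 0.278, 0.321, 0.407, 0.2300 and 0.2900 CPM in IFN-labelled libraries, against 0.637, 0.4100, 0.473, 0.951 and 1.78 CPM in untreated libraries. Untreated replicates 4 and 5 were the highest libraries (log2 change -1.47 ± 0.45, adjusted p = 0.0413), and the change was not called without IFN-labelled replicates 4 and 5 (adjusted p = 0.119) nor in 7 of the 10 fits that left out a library. The remaining 2, Il16 and Il10, are described with the lymphocyte genes. Irf9, a subunit of the transcription factor of type I interferon signalling, was the only called member of 34 type I interferon-stimulated genes tested (log2 change 0.20 ± 0.06, adjusted p = 0.042; 0.25 ± 0.07, adjusted p = 0.0292 without replicates 4 and 5), with a list median of 0.20, and 2 were called without IFN-labelled replicates 4 and 5. Irf9 was not called without IFN-labelled replicate 1, 2 or 3 or untreated replicate 1, 4 or 5 (adjusted p 0.0531 to 0.117).

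Some genes of antigen presentation by class I molecules were higher by a small amount. H2-D1, a class I heavy chain, had 7306, 7104, 8515, 7503 and 7823 CPM in IFN-labelled libraries, against 5300, 5813, 6361, 5910 and 6721 CPM in untreated libraries. The lowest IFN-labelled library exceeded the highest untreated one (log2 change 0.35 ± 0.09, adjusted p = 0.0165; 0.34 ± 0.10, adjusted p = 0.0359 without replicates 4 and 5). H2-D1 was not called without IFN-labelled replicate 3 or untreated replicate 1 (adjusted p 0.0572 to 0.0737). Tap2, a subunit of the transporter that carries peptides into the endoplasmic reticulum, had 213, 208, 235, 202 and 211 CPM in IFN-labelled libraries, against 156, 169, 179, 167 and 187 CPM in untreated libraries. It separated the labels in the same way (log2 change 0.32 ± 0.09, adjusted p = 0.0207; 0.35 ± 0.10, adjusted p = 0.0241 without replicates 4 and 5). Tap2 was not called without IFN-labelled replicate 3 or untreated replicate 1 (adjusted p 0.0637 to 0.0823). The immunoproteasome subunits Psmb8 (log2 change 0.34 ± 0.11, adjusted p = 0.0462) and Psmb10 (log2 change 0.35 ± 0.10, adjusted p = 0.0337) were also called, and neither was called without IFN-labelled replicates 4 and 5 (adjusted p = 0.0935 and 0.0671) or without any of IFN-labelled replicates 1, 2, 3 or 5 or untreated replicates 1 or 2. Of the 23 class I genes 4 were called higher and none lower with all libraries, and 2 higher and 1 lower without the pair, where all genes gave 2.42% higher. The labels did not overlap in 12 of the 23, beside 4.37% of all genes, and the list median was 0.24 both ways. The count of 4 was 0 when libraries with an index under 5 were summed and 0 without IFN-labelled replicate 3.

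Most class II genes had like differences that the test did not call. H2-Aa, the α chain of I-A, had 2421, 2561, 2808, 2731 and 2804 CPM in IFN-labelled libraries, against 1677, 1893, 2004, 2291 and 2350 CPM in untreated libraries. Cd74, the invariant chain, had 5045, 5032, 6424, 5341 and 5633 CPM in IFN-labelled libraries, against 3464, 3891, 4165, 4432 and 4733 CPM in untreated libraries. Neither gene overlapped between labels, and neither was called with all libraries (log2 change 0.38 ± 0.21, adjusted p = 0.266 for H2-Aa and log2 change 0.41 ± 0.21, adjusted p = 0.235 for Cd74) or without IFN-labelled replicates 4 and 5 (adjusted p = 0.415 and 0.323). Of 14 class II genes, 6 did not overlap, beside 4.37% of all genes, and 1 was called higher, beside 2.42% of all genes, or 2 without IFN-labelled replicates 4 and 5. The called gene was H2-Ob, a chain of the H2-O molecule that modulates peptide loading in B cells. H2-Ob had 32.9, 32.6, 37.5, 8.16 and 7.79 CPM in IFN-labelled libraries, against 4.18, 7.302, 7.24, 3.55 and 3.85 CPM in untreated libraries, so that IFN-labelled replicates 1 to 3 were several times above all others (log2 change 2.19 ± 0.59, adjusted p = 0.0219; 2.72 ± 0.62, adjusted p = 0.00506 without replicates 4 and 5). H2-Ob was not called without IFN-labelled replicate 1, 2 or 3 or untreated replicate 1 (adjusted p 0.0576 to 0.0753). Summed over the 22 B cell markers, the level was 1090 to 1250 CPM in IFN-labelled replicates 1 to 3 and 549 and 564 CPM in replicates 4 and 5, against 447 to 535 CPM in untreated libraries, and the part of B cells in the class II values was not tested.

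Of 28 listed genes of protein folding stress and amino acid stress 3 were called higher and none lower, where all genes gave 2.42% and 3.39%, with a median log2 change of 0.00. The counts were 3 higher and 2 lower without IFN-labelled replicates 4 and 5. Asns, asparagine synthetase and a target of the transcription factor ATF4, had 31.7, 32.8, 36.9, 32.8 and 35.9 CPM in IFN-labelled libraries, against 17.5, 20.6, 21.2, 24.1 and 23.6 CPM in untreated libraries. The labels did not overlap (log2 change 0.67 ± 0.17, adjusted p = 0.0156; 0.66 ± 0.20, adjusted p = 0.0341 without replicates 4 and 5). Asns was not called without IFN-labelled replicate 3 or untreated replicate 1 (adjusted p 0.0521 to 0.0537). Trib3, a pseudokinase induced by the same pathway, had 14.4, 14.8, 17.8, 12.9 and 12.5 CPM in IFN-labelled libraries, against 7.53, 9.71, 9.75, 7.96 and 8.83 CPM in untreated libraries. IFN-labelled replicates 1 to 3 were highest and no value overlapped (log2 change 0.73 ± 0.18, adjusted p = 0.0144; 0.84 ± 0.21, adjusted p = 0.00997 without replicates 4 and 5). Trib3 was not called without IFN-labelled replicate 3 (adjusted p 0.066). Sesn2, sestrin 2, which restrains mTORC1, had 21.2, 21.02, 22.6, 20.7 and 21.2 CPM in IFN-labelled libraries, against 12.3, 17.1, 16.4, 17.9 and 18.6 CPM in untreated libraries. Untreated replicate 1 was the lowest library (log2 change 0.38 ± 0.10, adjusted p = 0.0144; 0.39 ± 0.11, adjusted p = 0.0236 without replicates 4 and 5). Sesn2 was not called without IFN-labelled replicate 3 or untreated replicate 1 (adjusted p 0.0521 to 0.0707). Of 16 heat shock genes 2 were called lower, and 1 without IFN-labelled replicates 4 and 5. Hspd1, the mitochondrial chaperone HSP60, had 166, 163, 171, 164 and 162 CPM in IFN-labelled libraries, against 232, 195, 186, 203 and 197 CPM in untreated libraries. All IFN-labelled values were lower (log2 change -0.29 ± 0.07, adjusted p = 0.00631; -0.28 ± 0.08, adjusted p = 0.024 without replicates 4 and 5). Hspd1 was not called without untreated replicate 1 (adjusted p 0.0706). Hspa4, a relative of HSP70, was the other called member (log2 change -0.18 ± 0.05, adjusted p = 0.0356; -0.20 ± 0.06, adjusted p = 0.0506 without replicates 4 and 5). Hspa4 was not called without IFN-labelled replicate 1, 2, 3 or 5 or untreated replicate 1 (adjusted p 0.0508 to 0.37).

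Of 29 sterol and LXR genes 2 were called lower and none higher, where all genes gave 3.39% and 2.42%, with a median of -0.18. Without IFN-labelled replicates 4 and 5, 4 were called lower and 1 higher, with a median of -0.35. Scd2, a stearoyl-CoA desaturase, had 49.4, 48.8, 45.3, 78.5 and 76.6 CPM in IFN-labelled libraries, against 86.4, 95.5, 90.2, 178 and 173 CPM in untreated libraries. Untreated replicates 4 and 5 were highest and IFN-labelled replicates 4 and 5 were the highest of their label, with no overlap (log2 change -1.06 ± 0.27, adjusted p = 0.0145; -1.38 ± 0.32, adjusted p = 0.00549 without replicates 4 and 5). Scd2 was not called without IFN-labelled replicate 2 or 3 (adjusted p 0.0507 to 0.0621). Nor was it called within replicates 1 to 3 of both labels (log2 change -0.92, adjusted p = 0.0504). Lpl, lipoprotein lipase, had 2266, 2290, 1820, 1962 and 1948 CPM in IFN-labelled libraries, against 2980, 2764, 2763, 3610 and 2723 CPM in untreated libraries, again without overlap (log2 change -0.53 ± 0.16, adjusted p = 0.0399). That call ended without IFN-labelled replicates 4 and 5 (adjusted p = 0.111) and with 8 of the 10 single libraries left out, at adjusted p up to 0.117. Abca1, a cholesterol exporter, reached 203 CPM in untreated replicate 1 and overlapped elsewhere (log2 change -0.75 ± 0.23, adjusted p = 0.0408; -0.63 ± 0.27, adjusted p = 0.147 without replicates 4 and 5). Abca1 was not called without IFN-labelled replicate 1, 2, 3, 4 or 5 or untreated replicate 1 or 2 (adjusted p 0.0605 to 0.396).

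Pf4, a chemokine made by platelets and macrophages, had 68.6, 69.4, 70.04, 48.7 and 50.2 CPM in IFN-labelled libraries, against 84.3, 91.01, 101, 118 and 128 CPM in untreated libraries. The IFN-labelled libraries were all lower, replicates 4 and 5 most so (log2 change -0.77 ± 0.16, adjusted p = 0.00336; -0.59 ± 0.18, adjusted p = 0.0404 without replicates 4 and 5). Pf4 stayed called with each library left out in turn. It was not called with libraries of an index under 5 summed (adjusted p = 0.0583) or within replicates 1 to 3 of both labels (adjusted p = 0.163). Adam8, a membrane metalloprotease, had 320.2, 308, 257, 275 and 277 CPM in IFN-labelled libraries, against 401, 374, 386, 464 and 388 CPM in untreated libraries. No value overlapped (log2 change -0.48 ± 0.12, adjusted p = 0.0109; -0.45 ± 0.14, adjusted p = 0.0428 without replicates 4 and 5). Adam8 stayed called with each library left out in turn, but not in 4 of the other settings tried. Cd200r1, an inhibitory receptor of myeloid cells, was lower without overlap (log2 change -0.37 ± 0.11, adjusted p = 0.0316; -0.43 ± 0.13, adjusted p = 0.0305 without replicates 4 and 5). Cd200r1 was not called without IFN-labelled replicate 1, 2 or 3 or untreated replicate 1 or 2 (adjusted p 0.0618 to 0.102). Dock2, which activates Rac in white cells, was lower without overlap too (log2 change -0.25 ± 0.06, adjusted p = 0.0139; -0.21 ± 0.07, adjusted p = 0.0632 without replicates 4 and 5). Dock2 was not called without untreated replicate 1 (adjusted p 0.189). Cd226, an activating receptor of the monocyte-derived list, had 3.15, 3.17, 4.29, 4.38 and 3.25 CPM in IFN-labelled libraries, against 5.89, 6.96, 6.49, 8.502 and 6.52 CPM in untreated libraries. All IFN-labelled values were below all untreated values (log2 change -0.91 ± 0.23, adjusted p = 0.0156; -0.96 ± 0.28, adjusted p = 0.03 without replicates 4 and 5). Cd226 was not called without IFN-labelled replicate 1 or 2 (adjusted p 0.0505 to 0.0509). Igf2bp3, an RNA-binding protein of growing cells, had 0.377, 0.552, 0.417, 0.493 and 0.476 CPM in IFN-labelled libraries, against 1.15, 1.103, 0.957, 2.13 and 1.58 CPM in untreated libraries. It showed no overlap either (log2 change -1.58 ± 0.32, adjusted p = 0.00265; -1.62 ± 0.40, adjusted p = 0.00874 without replicates 4 and 5). Igf2bp3 stayed called with each library left out in turn, but not in 2 of the other settings tried.

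**Figure D2:**
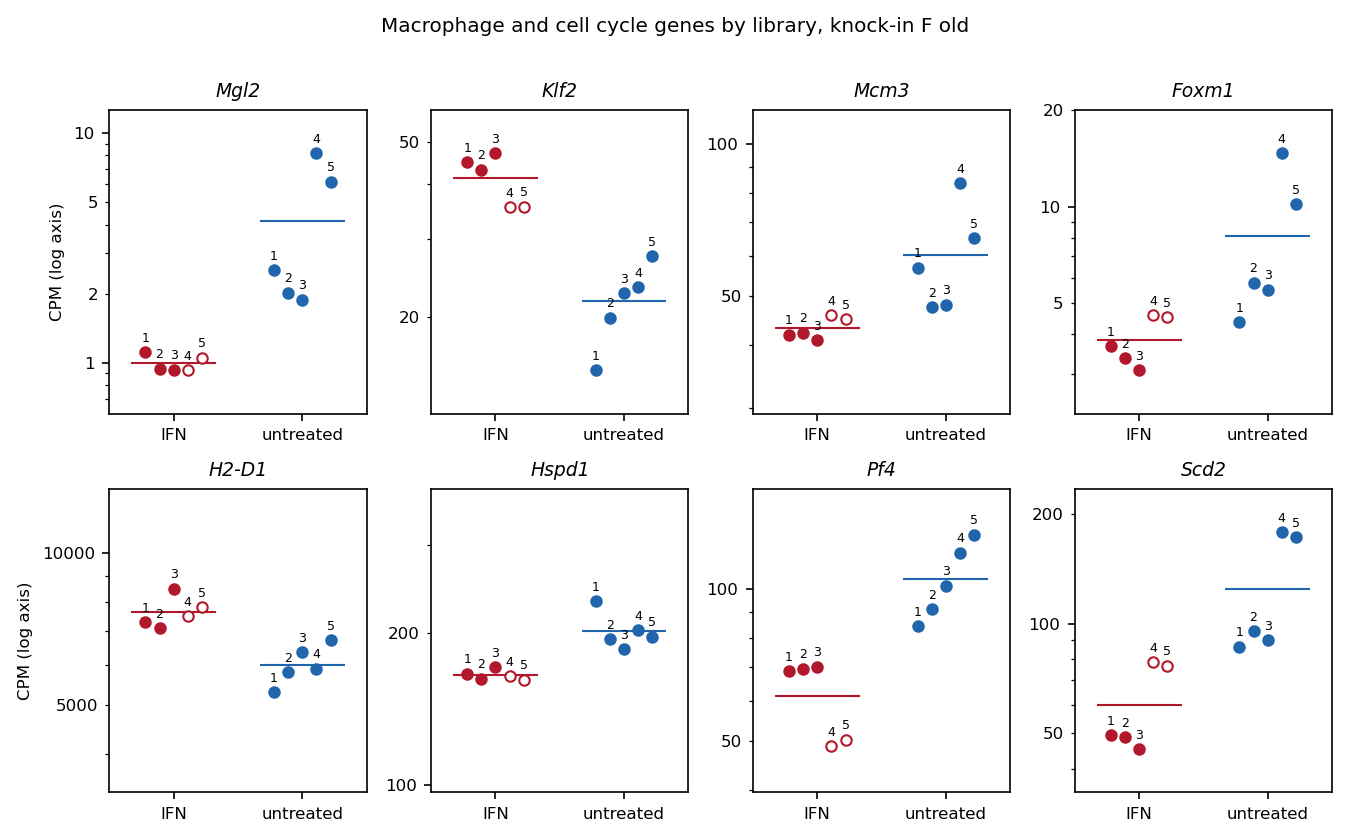
CPM per library on a log axis for 8 genes, IFN-labelled libraries left of untreated ones, with open symbols for IFN-labelled replicates 4 and 5 and a bar at each group's mean. Mgl2 is near 1 CPM in all IFN-labelled libraries and 1.88 to 8.19 CPM in untreated ones, and Klf2 is 35.5 to 47.1 CPM against 15.1 to 27.4 CPM.

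Genes of the cell cycle formed the list with the most calls. A dividing cell raises replication genes in S phase and mitotic genes in G2 and M. Of 39 proliferation and replication genes 31 were called lower and none higher, where all genes gave 3.39% lower, with a median log2 change of -1.07. Without IFN-labelled replicates 4 and 5, 33 were called lower, with a median of -1.29. All 39 had a negative change, and in 11 the labels did not overlap, beside 4.37% of all genes. In bulk libraries fewer dividing cells and less of these RNAs per cell cannot be told apart.

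Promoters are shown for 4 of these genes because members of the list share motifs. A pair of short motifs was searched on both strands of 300-base windows from RefSeq (build GRCm38.p6) around each start: TTTGAA, the cell cycle homology region, and CCAAT, the site of NF-Y, neither overlapping the other. Both are known from promoters of mitotic genes. For 30 of the 39 genes a window was found, with 32 promoters in all. TTTGAA was in 16 of these 32 (50%), against 17.9% of all 32851 promoters. CCAAT was in 27 (84.4%), against 37.4% of all. Both were in 16 (50%), against 6.95% of all. Such a match is a description of the letters and not a shown site. Among members called lower both with and without IFN-labelled replicates 4 and 5, 10 of the promoters considered held both motifs. That count is of promoters, not of genes, and did not cover every chromosome, so it may miss members of the list. From the promoters considered, the 4 with the smallest adjusted p are printed 5′ to 3′. The letters of each motif, on either strand, are in capitals.
Mcm2 (chr6:88898731-88899030, minus strand): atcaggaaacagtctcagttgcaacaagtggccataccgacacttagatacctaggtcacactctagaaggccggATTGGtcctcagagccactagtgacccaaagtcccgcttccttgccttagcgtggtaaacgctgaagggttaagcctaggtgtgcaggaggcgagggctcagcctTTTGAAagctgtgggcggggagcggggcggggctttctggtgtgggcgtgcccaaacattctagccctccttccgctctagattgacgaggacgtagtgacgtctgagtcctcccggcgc
Cenpf (chr1:189688037-189688336, minus strand): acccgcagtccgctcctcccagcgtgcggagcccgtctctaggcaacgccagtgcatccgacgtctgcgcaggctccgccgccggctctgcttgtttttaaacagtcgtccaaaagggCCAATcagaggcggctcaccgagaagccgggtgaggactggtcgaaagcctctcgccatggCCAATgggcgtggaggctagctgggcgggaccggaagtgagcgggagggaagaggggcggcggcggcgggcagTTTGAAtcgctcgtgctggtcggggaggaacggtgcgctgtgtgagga
Top2a (chr11:99024140-99024439, minus strand): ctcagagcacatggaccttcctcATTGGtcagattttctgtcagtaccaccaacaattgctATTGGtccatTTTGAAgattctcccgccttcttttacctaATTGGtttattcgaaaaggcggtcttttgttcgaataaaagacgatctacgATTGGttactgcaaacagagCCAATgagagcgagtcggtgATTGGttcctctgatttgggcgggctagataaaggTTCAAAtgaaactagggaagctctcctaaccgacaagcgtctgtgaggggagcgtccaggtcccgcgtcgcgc
Mki67 (chr7:135716330-135716629, minus strand): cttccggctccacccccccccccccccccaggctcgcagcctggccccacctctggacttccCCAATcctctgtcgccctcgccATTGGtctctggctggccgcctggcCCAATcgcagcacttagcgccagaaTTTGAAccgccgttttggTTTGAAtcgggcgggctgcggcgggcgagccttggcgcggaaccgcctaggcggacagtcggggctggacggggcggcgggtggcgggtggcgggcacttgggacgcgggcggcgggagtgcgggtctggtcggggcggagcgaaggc

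Several members have a role in DNA replication. Mcm3, a subunit of the helicase that opens replication origins, had 41.9, 42.3, 40.9, 45.7 and 44.97 CPM in IFN-labelled libraries, against 56.9, 47.5, 48.1, 83.6 and 65.1 CPM in untreated libraries. All IFN-labelled libraries were lower and untreated replicate 4 was highest (log2 change -0.48 ± 0.10, adjusted p = 0.00425; -0.53 ± 0.12, adjusted p = 0.00584 without replicates 4 and 5). Mcm3 stayed called with each library left out in turn, but not in a fit of the 10 libraries alone (adjusted p = 0.097). Mcm4, of the same helicase, had 22.3, 20.5, 18.1, 23.5 and 23.3 CPM in IFN-labelled libraries, against 32.5, 24.6, 24.6, 49.3 and 33.8 CPM in untreated libraries. It was separated in the same manner (log2 change -0.61 ± 0.13, adjusted p = 0.00383; -0.70 ± 0.15, adjusted p = 0.00381 without replicates 4 and 5). Mcm4 stayed called with each library left out in turn, but not in the fit of the 10 libraries (adjusted p = 0.102). Mcm2, whose promoter is printed above, had 19.5, 19.1, 17.9, 19.01 and 18.9 CPM in IFN-labelled libraries, against 23.2, 21.04, 21.1, 45.5 and 30.9 CPM in untreated libraries and did not overlap (log2 change -0.59 ± 0.14, adjusted p = 0.00731; -0.59 ± 0.16, adjusted p = 0.0203 without replicates 4 and 5). Mcm2 was not called without untreated replicate 4 (adjusted p 0.0505). Tk1, the thymidine kinase of S phase, had 6.04, 5.704, 4.98, 6.13 and 6.51 CPM in IFN-labelled libraries, against 6.74, 8.07, 8.22, 18.4 and 11.5 CPM in untreated libraries and did not overlap (log2 change -0.85 ± 0.18, adjusted p = 0.00441; -0.93 ± 0.22, adjusted p = 0.00783 without replicates 4 and 5). Tk1 stayed called with each library left out in turn, but not in the fit of the 10 libraries (adjusted p = 0.105).

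Several others have a role in mitosis. Foxm1, the transcription factor of the mitotic programme, had 3.67, 3.37, 3.09, 4.59 and 4.51 CPM in IFN-labelled libraries, against 4.37, 5.799, 5.503, 14.7 and 10.2 CPM in untreated libraries. Untreated replicate 1 was below IFN-labelled replicates 4 and 5, and untreated replicates 4 and 5 were far above every other library (log2 change -1.08 ± 0.23, adjusted p = 0.00434; -1.26 ± 0.28, adjusted p = 0.00397 without replicates 4 and 5). Foxm1 stayed called with each library left out in turn, but not in the fit of the 10 libraries alone (adjusted p = 0.108). Top2a, the topoisomerase that untangles replicated DNA, had 9.72, 9.45, 6.68, 14.2 and 13.9 CPM in IFN-labelled libraries, against 22.2, 14.9, 12.3, 62.7 and 36.2 CPM in untreated libraries. The labels overlapped with all libraries and not without IFN-labelled replicates 4 and 5 (log2 change -1.46 ± 0.38, adjusted p = 0.019; -1.78 ± 0.47, adjusted p = 0.0154 without replicates 4 and 5). Top2a was not called without IFN-labelled replicate 1, 2 or 3 or untreated replicate 4 (adjusted p 0.0523 to 0.0831). Mki67, the proliferation antigen Ki-67, had 11.5, 11.6, 10.9, 11.9 and 12.7 CPM in IFN-labelled libraries, against 27.2, 17.6, 15.3, 29.4 and 22.01 CPM in untreated libraries without overlap (log2 change -0.93 ± 0.25, adjusted p = 0.0198; -0.98 ± 0.30, adjusted p = 0.037 without replicates 4 and 5). Mki67 was not called without IFN-labelled replicate 3 or untreated replicate 1 (adjusted p 0.0621 to 0.0764). Cenpf, a protein of the kinetochore, had 0.347, 0.512, 0.437, 1.21 and 0.694 CPM in IFN-labelled libraries, against 2.22, 0.8005, 1.105, 5.16 and 2.53 CPM in untreated libraries (log2 change -1.89 ± 0.49, adjusted p = 0.0178; -2.45 ± 0.61, adjusted p = 0.0103 without replicates 4 and 5). Cenpf was not called without IFN-labelled replicate 1, 2 or 3 or untreated replicate 4 (adjusted p 0.0538 to 0.066).

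Other large changes had the same shape. Rrm2, the inducible subunit of ribonucleotide reductase, had 5.88, 5.57, 4.94, 10.3 and 9.89 CPM in IFN-labelled libraries, against 10.9, 9.57, 9.49, 49.2 and 25.7 CPM in untreated libraries. Untreated replicates 4 and 5 stood alone at the top, IFN-labelled replicates 4 and 5 overlapped untreated replicates 1 to 3, and IFN-labelled replicates 1 to 3 were below all (log2 change -1.52 ± 0.40, adjusted p = 0.0181; -1.94 ± 0.48, adjusted p = 0.0103 without replicates 4 and 5). Pclaf, a partner of the sliding clamp PCNA that the list does not hold, had 3.93, 3.75, 2.91, 7.601 and 6.79 CPM in IFN-labelled libraries, against 6.43, 5.96, 5.45, 38.6 and 20.1 CPM in untreated libraries, in the same order (log2 change -1.61 ± 0.44, adjusted p = 0.0243; -2.12 ± 0.54, adjusted p = 0.0129 without replicates 4 and 5). Cyclin A2, Ccna2 (log2 change -1.53 ± 0.43, adjusted p = 0.0286; -1.95 ± 0.53, adjusted p = 0.0191 without replicates 4 and 5), the checkpoint kinase Bub1 (log2 change -1.53 ± 0.37, adjusted p = 0.0109; -1.94 ± 0.45, adjusted p = 0.00597 without replicates 4 and 5), the spindle motor Kif11 (log2 change -1.51 ± 0.43, adjusted p = 0.0311; -1.90 ± 0.53, adjusted p = 0.024 without replicates 4 and 5) and the hyaluronan receptor Hmmr (log2 change -1.64 ± 0.47, adjusted p = 0.031; -2.21 ± 0.58, adjusted p = 0.0143 without replicates 4 and 5) followed it. Without untreated replicate 4 none of these 6 was called, at adjusted p of 0.0638 for Bub1, 0.107 for Rrm2 and 0.171 for Kif11. All but Bub1 were also not called without IFN-labelled replicate 1, 2 or 3.

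The count of lower members moved with single libraries. It was 7 of 39 without untreated replicate 4, 13, 14 and 10 without IFN-labelled replicate 1, 2 or 3, and 38 without untreated replicate 3. Within replicates 1 to 3 alone 2 were called lower, with a median of -0.42, and within replicates 4 and 5 alone 11 were, with a median of -1.46. With the 10 libraries fitted alone 1 was called, and 4 when libraries with an index under 5 were summed. Summed over the list, the level was 429 to 535 CPM in IFN-labelled libraries, against 524 to 602 CPM in untreated replicates 1 to 3 and 849 and 1250 CPM in untreated replicates 5 and 4. The mesothelial and fibroblast markers, 19 of 20 tested, moved along in part: their sum was 95.1 to 239 CPM in IFN-labelled libraries, against 80.7 to 541 CPM in untreated libraries, with 436 and 541 CPM in untreated replicates 4 and 5. Their median log2 change was -0.79. Of these markers 2 were called higher (Krt18 and Krt8) and 1 lower (Krt19), beside 2.42% and 3.39% of all genes. Cdh2, N-cadherin of that list's cell types but not a member of the list, had 0.367, 0.422, 0.285, 0.712 and 1.02 CPM in IFN-labelled libraries, against 1.62, 0.576, 0.641, 3.04 and 3.24 CPM in untreated libraries (log2 change -1.70 ± 0.54, adjusted p = 0.0475; -2.34 ± 0.67, adjusted p = 0.0257 without replicates 4 and 5). Cdh2 was not called without IFN-labelled replicate 1, 2, 3 or 4 or untreated replicate 1, 4 or 5 (adjusted p 0.0526 to 0.138). The part of such cells in the cell cycle values was not tested.

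**Figure D3:**
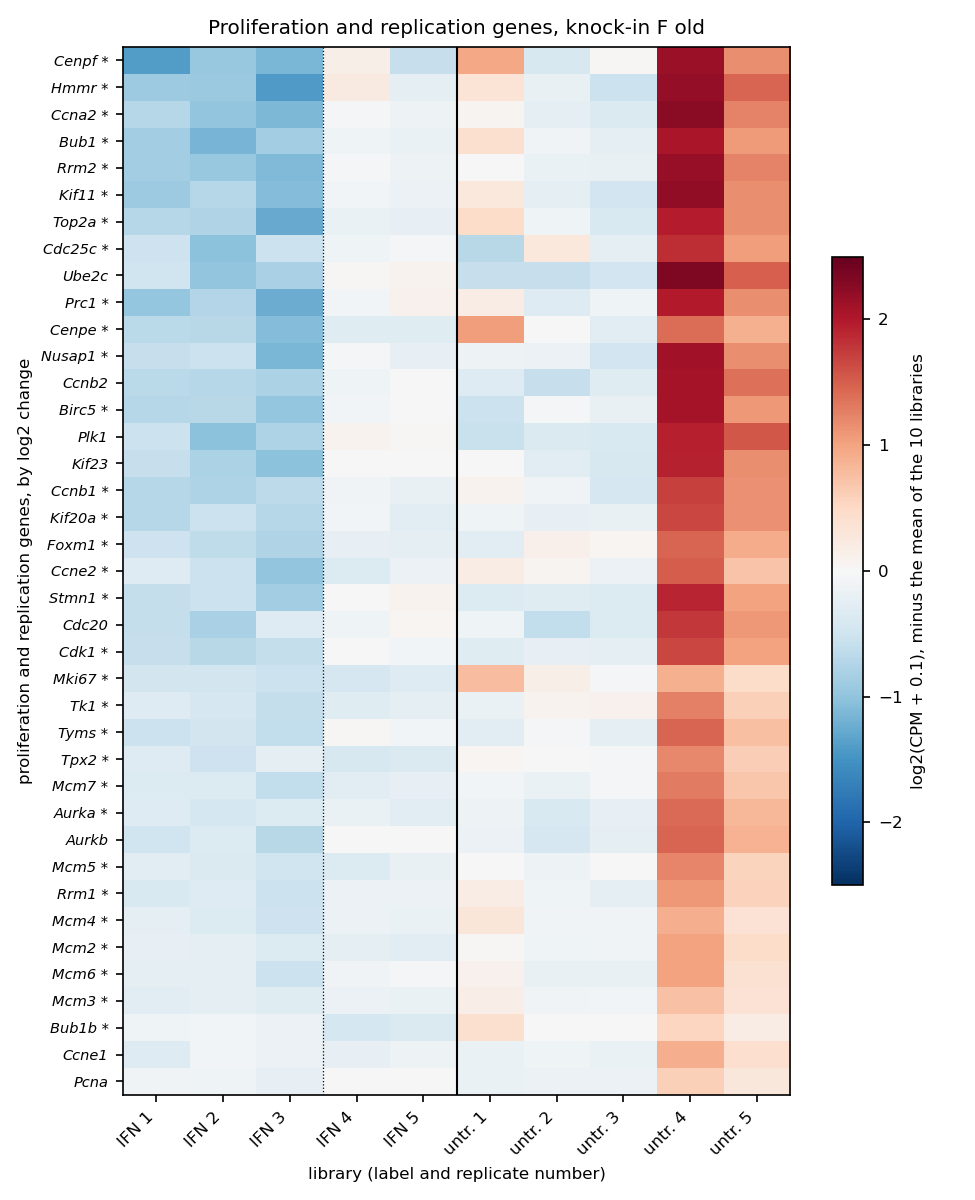
Heat map of the 39 proliferation and replication genes, one column a library with IFN-labelled libraries left of untreated ones, coloured by log2 of CPM plus 0.1 relative to the gene's mean over the 10 libraries, with a star for genes called lower. Untreated replicates 4 and 5 are the highest columns and IFN-labelled replicates 1 to 3 the lowest.

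Most B cell markers were higher under the IFN label, and their summed level was highest in IFN-labelled replicates 1 to 3. Of 22 B cell markers 19 were called higher and none lower, where all genes gave 2.42% higher, with a median log2 change of 2.18; without IFN-labelled replicates 4 and 5 the count was 19 as well and the median 2.65. Cd79a, which carries the signal of the B cell receptor, had 57.6, 58.98, 62.8, 12.3 and 12.98 CPM in IFN-labelled libraries, against 6.06, 9.95, 12.3, 5.901 and 6.11 CPM in untreated libraries. Replicates 1 to 3 stood far above the rest, and replicates 4 and 5 lay beside untreated replicate 3 (log2 change 2.34 ± 0.55, adjusted p = 0.00803; 2.89 ± 0.56, adjusted p = 0.000892 without replicates 4 and 5). Its partner Cd79b had 53.8, 55.3, 45.8, 8.77 and 8.43 CPM in IFN-labelled libraries, against 5.45, 7.76, 9.64, 3.83 and 5.48 CPM in untreated libraries and showed the same split (log2 change 2.42 ± 0.55, adjusted p = 0.00582; 3.00 ± 0.55, adjusted p = 0.000329 without replicates 4 and 5). Ms4a1, the surface antigen CD20, had 41.8, 41.3, 55.5, 5.31 and 5.54 CPM in IFN-labelled libraries, against 4.15, 7.06, 5.996, 3.17 and 3.65 CPM in untreated libraries (log2 change 2.63 ± 0.62, adjusted p = 0.00834; 3.26 ± 0.61, adjusted p = 0.000578 without replicates 4 and 5). The calls of these 3 genes held with each library left out in turn. In the fit of the 10 libraries alone Cd79a was not called (adjusted p = 0.0634).

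Immunoglobulin genes followed. Igkc, the κ light chain constant region, had 68.7, 67.8, 49.1, 9.496 and 8.79 CPM in IFN-labelled libraries, against 5.49, 6.62, 6.57, 5.73 and 6.099 CPM in untreated libraries. All IFN-labelled libraries exceeded all untreated ones, replicates 4 and 5 by little (log2 change 2.74 ± 0.56, adjusted p = 0.00266; 3.34 ± 0.56, adjusted p = 8.38e-05 without replicates 4 and 5). Ighm, the heavy chain of IgM, had 351, 369.8, 218, 33.03 and 33.5 CPM in IFN-labelled libraries, against 31.6, 46.9, 47.6, 28.2 and 34.6 CPM in untreated libraries, with replicates 4 and 5 inside the untreated range (log2 change 2.41 ± 0.59, adjusted p = 0.012; 3.05 ± 0.58, adjusted p = 0.000701 without replicates 4 and 5). Ighm was not called without IFN-labelled replicate 2 (adjusted p 0.051). Counts on V segments amounted to 16560, 15669, 9906, 1939 and 2092 in IFN-labelled replicates 1 to 5, against 1575, 2534, 2489, 1634 and 1754 in untreated replicates 1 to 5. Of 16 plasma cell and class-switched genes 5 were called higher, beside 2.42% of all genes, with a median of 1.25. The count was 7 without IFN-labelled replicates 4 and 5, with a median of 1.83, and 3 without IFN-labelled replicate 1. Mzb1, a chaperone of antibody-secreting cells, had 5.12, 4.64, 4.21, 0.263 and 0.2796 CPM in IFN-labelled libraries, against 0.329, 0.459, 0.434, 0.2402 and 0.418 CPM in untreated libraries (log2 change 2.94 ± 0.66, adjusted p = 0.00521; 3.62 ± 0.61, adjusted p = 0.0001 without replicates 4 and 5). Jchain, which joins IgM and IgA polymers, had 8.52, 8.64, 0.762, 0.164 and 0.217 CPM in IFN-labelled libraries, against 0.462, 0.234, 0.286, 0.909 and 0.554 CPM in untreated libraries. It was high in replicates 1 and 2 alone (log2 change 2.91 ± 0.86, adjusted p = 0.0362; 3.61 ± 0.84, adjusted p = 0.00598 without replicates 4 and 5). Jchain was not called without IFN-labelled replicate 1 or 2 or untreated replicate 1, 2 or 3 (adjusted p 0.0573 to 0.123). Igha, the heavy chain of IgA, was highest in replicate 3 instead, with 0.745, 0.793, 2.55, 0.208 and 0.0725 CPM in IFN-labelled libraries, against 0.0719, 0.0293, 0.148, 0.104 and 0.0314 CPM in untreated libraries (log2 change 3.48 ± 0.82, adjusted p = 0.0088; 4.12 ± 0.82, adjusted p = 0.00114 without replicates 4 and 5). Igha was not called without IFN-labelled replicate 3 (adjusted p 0.0817).

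Some markers of the list were as high or nearly as high in replicates 4 and 5. Fcer2a, the low-affinity IgE receptor CD23, had 0.804, 1.105, 1.901, 1.31 and 1.34 CPM in IFN-labelled libraries, against 0.0205, 0.264, 0.296, 0.167 and 0.157 CPM in untreated libraries, so that replicates 4 and 5 lay among replicates 1 to 3 (log2 change 2.82 ± 0.65, adjusted p = 0.00731; 2.80 ± 0.72, adjusted p = 0.0126 without replicates 4 and 5). Cd37, a tetraspanin that macrophages express as well, had 244, 239, 229.7, 226 and 236 CPM in IFN-labelled libraries, against 148, 183, 198, 194 and 207 CPM in untreated libraries (log2 change 0.34 ± 0.11, adjusted p = 0.0488; 0.35 ± 0.12, adjusted p = 0.073 without replicates 4 and 5). Cd37 was not called without IFN-labelled replicate 1, 2, 3, 4 or 5 or untreated replicate 1 or 2 (adjusted p 0.0521 to 0.202). The B cell count of 19 was 17 within replicates 1 to 3 and 0 within replicates 4 and 5, where the median was 0.82. It was 10, 9 and 8 without IFN-labelled replicate 1, 2 or 3, 8 without untreated replicate 1, and 9 when libraries with an index under 5 were summed. In bulk libraries more B cells and more of these RNAs per cell cannot be told apart.

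**Figure D4:**
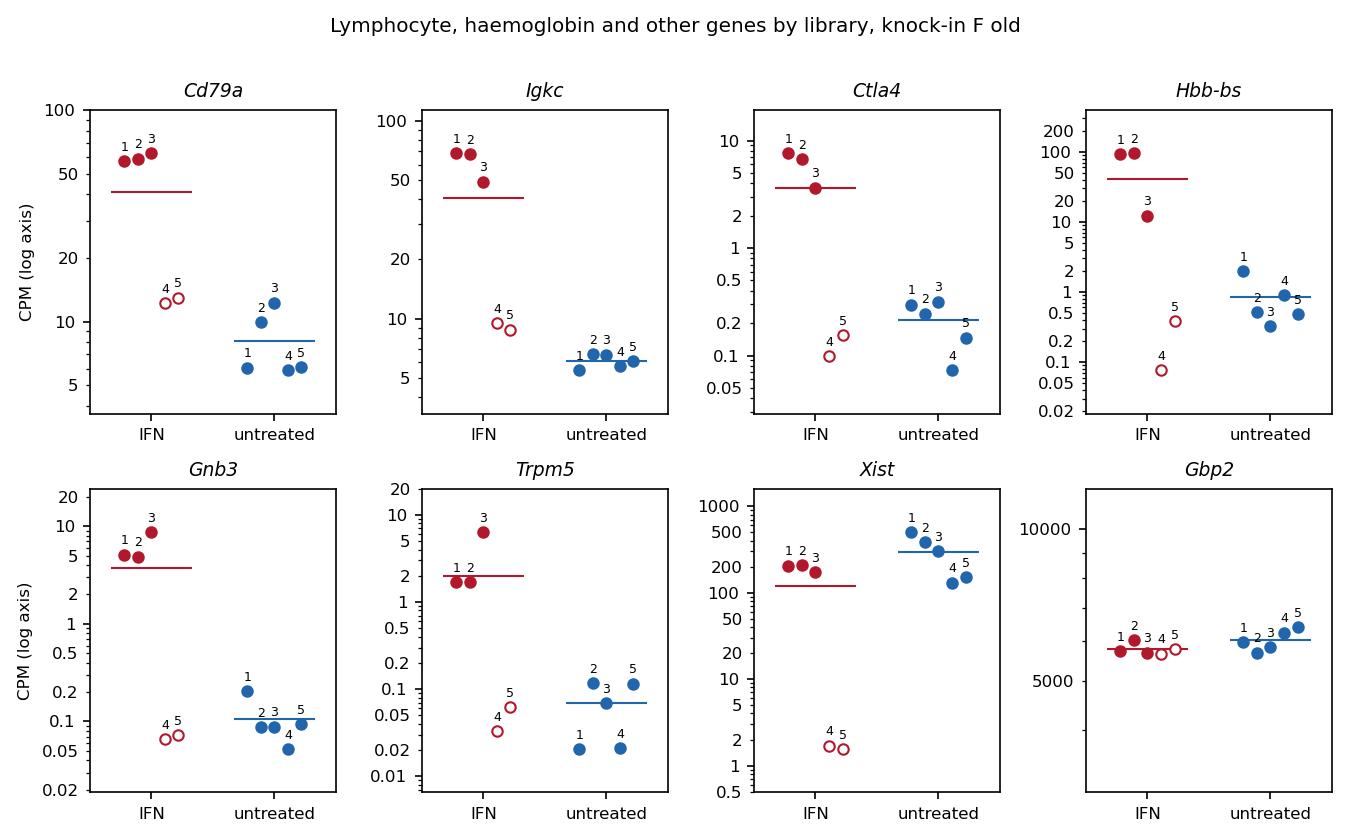
CPM per library on a log axis for 8 genes, IFN-labelled libraries left of untreated ones, with open symbols for IFN-labelled replicates 4 and 5 and a bar at each group's mean. Cd79a, Igkc, Ctla4, Hbb-bs, Gnb3 and Trpm5 are high in IFN-labelled replicates 1 to 3, Xist is at 1.69 and 1.55 CPM in replicates 4 and 5, and Gbp2 is level across all 10 libraries.

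T cell genes were low in all libraries, and some were higher under the IFN label. Of 31 T and NK cell markers 10 were called higher and none lower, where all genes gave 2.42% higher, with a median of 1.09; without IFN-labelled replicates 4 and 5 the count was 6 and the median 1.00, and without IFN-labelled replicate 3 the count was 3. Ctla4, an inhibitory receptor of activated and regulatory T cells, had 7.64, 6.71, 3.65, 0.0986 and 0.155 CPM in IFN-labelled libraries, against 0.298, 0.244, 0.316, 0.0731 and 0.146 CPM in untreated libraries. IFN-labelled replicates 1 to 3 stood far above the other libraries (log2 change 4.07 ± 0.89, adjusted p = 0.00439; 4.79 ± 0.82, adjusted p = 0.000147 without replicates 4 and 5). Cd3g, a chain of the T cell receptor complex, had 2.095, 2.14, 1.82, 0.361 and 0.632 CPM in IFN-labelled libraries, against 0.0514, 0.312, 0.227, 0.324 and 0.345 CPM in untreated libraries, without overlap (log2 change 2.48 ± 0.59, adjusted p = 0.00932; 3.00 ± 0.61, adjusted p = 0.00165 without replicates 4 and 5). Cd5, found on T cells and B-1 cells, had 1.77, 1.53, 2.03, 0.208 and 0.321 CPM in IFN-labelled libraries, against 0.0205, 0.176, 0.128, 0.2402 and 0.136 CPM in untreated libraries (log2 change 3.05 ± 0.64, adjusted p = 0.00315; 3.65 ± 0.63, adjusted p = 0.000166 without replicates 4 and 5). Lck, the kinase of the T cell receptor, had 9.25, 9.59, 9.902, 3.38 and 3.19 CPM in IFN-labelled libraries, against 2.06, 3.06, 3.304, 1.58 and 1.88 CPM in untreated libraries (log2 change 1.57 ± 0.48, adjusted p = 0.0417; 2.01 ± 0.52, adjusted p = 0.0129 without replicates 4 and 5). Lck was not called without IFN-labelled replicate 1, 2 or 3 or untreated replicate 1, 2, 4 or 5 (adjusted p 0.0582 to 0.127). Cd8a, the co-receptor of cytotoxic T cells, was highest in replicates 3, 4 and 5, with 0.457, 0.402, 1.403, 0.767 and 0.8595 CPM in IFN-labelled libraries, against 0.123, 0.185, 0.266, 0.104 and 0.105 CPM in untreated libraries (log2 change 2.29 ± 0.62, adjusted p = 0.021; 2.25 ± 0.68, adjusted p = 0.0368 without replicates 4 and 5). Cd8a was not called without IFN-labelled replicate 3 or untreated replicate 1 (adjusted p 0.0683 to 0.0867). The summed level of the list ran the other way, at 233 to 296 CPM in IFN-labelled and 254 to 329 CPM in untreated libraries, so the calls concern its less abundant members. Cd3d, Trbc1, Trbc2 and Eomes were each at 0 in 1 library.

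Gimap7, a GTPase of lymphocytes, had 7.85, 7.86, 5.17, 0.537 and 0.746 CPM in IFN-labelled libraries, against 0.226, 0.303, 0.286, 0.178 and 0.272 CPM in untreated libraries. It did not overlap between labels and was highest in replicates 1 to 3 (log2 change 4.12 ± 0.73, adjusted p = 0.000467; 4.78 ± 0.71, adjusted p = 1.10e-05 without replicates 4 and 5). Il10, an anti-inflammatory cytokine of macrophages and lymphocytes, had 2.95, 2.33, 0.559, 0.1205 and 0.228 CPM in IFN-labelled libraries, against 0.113, 0.166, 0.108, 0.261 and 0.0523 CPM in untreated libraries. It was highest in replicates 1 and 2 and only somewhat raised in replicate 3 (log2 change 3.13 ± 0.74, adjusted p = 0.00843; 3.78 ± 0.72, adjusted p = 0.000722 without replicates 4 and 5). Il10 was not called without IFN-labelled replicate 1 (adjusted p 0.0506). Il16, a cytokine that lymphocytes store as a precursor, had 13.4, 14.3, 12.3, 10.3 and 11.8 CPM in IFN-labelled libraries, against 4.09, 5.84, 5.57, 11.1 and 11.2 CPM in untreated libraries (log2 change 0.72 ± 0.23, adjusted p = 0.0461; 0.82 ± 0.26, adjusted p = 0.0428 without replicates 4 and 5). Il16 was not called without IFN-labelled replicate 1, 2, 3 or 5 or untreated replicate 1, 2 or 3 (adjusted p 0.0609 to 0.194).

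Haemoglobin RNA marked the same libraries in another order. Hba-a1, an α-globin gene, had 166, 163, 21.1, 0.6900 and 0.383 CPM in IFN-labelled libraries, against 4.68, 0.722, 0.602, 1.35 and 0.795 CPM in untreated libraries. Replicates 1 and 2 were nearly equal, replicate 3 was several times lower and replicates 4 and 5 were at the untreated level (log2 change 5.43 ± 1.28, adjusted p = 0.00843; 6.16 ± 1.21, adjusted p = 0.00101 without replicates 4 and 5). Hbb-bs, a β-globin gene, had 92.8, 95.6, 12.2, 0.0767 and 0.383 CPM in IFN-labelled libraries, against 1.98, 0.517, 0.326, 0.898 and 0.481 CPM in untreated libraries (log2 change 5.58 ± 1.33, adjusted p = 0.00908; 6.31 ± 1.26, adjusted p = 0.00114 without replicates 4 and 5). Hba-a2 and Hbb-bt had the same order (log2 change 5.40 ± 1.27 and 5.60 ± 1.36, or 6.13 and 6.33 without replicates 4 and 5), and reads of near-identical globin copies may be split between them. Of 6 red cell genes tested 5 were called higher, beside 2.42% of all genes, with a median of 5.41, or 6.15 without IFN-labelled replicates 4 and 5. Their sum was 362, 362, 47.4, 1.23 and 1.23 CPM in IFN-labelled replicates 1 to 5, against 1.41 to 9.54 CPM in untreated libraries. Within replicates 4 and 5 alone none was called and the median was -0.97.

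A further group of genes was high in IFN-labelled replicates 1 to 3 and near 0 elsewhere, most of them among the 15 largest changes. Gnb3, a G protein β subunit of taste and photoreceptor cells, had 5.11, 4.88, 8.73, 0.0657 and 0.0725 CPM in IFN-labelled libraries, against 0.205, 0.0879, 0.0888, 0.0522 and 0.0942 CPM in untreated libraries (log2 change 5.14 ± 0.81, adjusted p = 6.65e-05; 5.87 ± 0.64, adjusted p = 1.46e-08 without replicates 4 and 5). Trpm5, the cation channel of taste and tuft cells, had 1.698, 1.68, 6.36, 0.0329 and 0.0621 CPM in IFN-labelled libraries, against 0.0205, 0.117, 0.06904, 0.0209 and 0.115 CPM in untreated libraries, with replicate 3 highest (log2 change 4.81 ± 0.88, adjusted p = 0.000765; 5.53 ± 0.77, adjusted p = 2.69e-06 without replicates 4 and 5). Hepacam2, an adhesion protein found on tuft cells, had 6.32, 7.07, 10.46, 0.383 and 0.197 CPM in IFN-labelled libraries, against 0.3699, 0.683, 0.483, 0.418 and 0.418 CPM in untreated libraries (log2 change 3.36 ± 0.71, adjusted p = 0.00357; 4.06 ± 0.64, adjusted p = 3.03e-05 without replicates 4 and 5). These 3 genes shared the libraries in which they were high, while replicate 3 exceeded replicates 1 and 2 in each. Rgs13, a regulator of G protein signalling known from B cells and mast cells, had 2.59, 2.09, 1.75, 0.0219 and 0.0207 CPM in IFN-labelled libraries, against 0.0103, 0, 0, 0.0104 and 0 CPM in untreated libraries, and its untreated values rest on single counts, so that no fold is given. Rgs13 did not pass the filter on low counts in the fits of the 10 libraries alone. Gnb3 and Rgs13 were tested in 19 settings, where Trpm5 and Hepacam2 were tested in 21. In the fit of all 63 libraries a gene can pass that filter through the few libraries where it is high.

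Pigr, the receptor that carries IgA and IgM across epithelia, had 6.25, 6.04, 4.697, 0.0438 and 0.0518 CPM in IFN-labelled libraries, against 0.144, 0.127, 0.138, 0.104 and 0.0942 CPM in untreated libraries (log2 change 4.80 ± 1.03, adjusted p = 0.00395; 5.53 ± 0.94, adjusted p = 0.000125 without replicates 4 and 5). Krt18, a keratin of simple epithelia, had 7.903, 8.81, 10.1, 0.504 and 0.228 CPM in IFN-labelled libraries, against 0.637, 0.381, 0.562, 0.992 and 0.722 CPM in untreated libraries (log2 change 3.06 ± 0.56, adjusted p = 0.00079; 3.76 ± 0.45, adjusted p = 9.63e-08 without replicates 4 and 5). Its partner Krt8 had 7.33, 7.15, 3.98, 0.756 and 0.487 CPM in IFN-labelled libraries, against 1.08, 0.8102, 0.641, 2.44 and 2.302 CPM in untreated libraries, with untreated replicates 4 and 5 above the other untreated libraries (log2 change 1.44 ± 0.45, adjusted p = 0.0453; 2.08 ± 0.39, adjusted p = 0.000619 without replicates 4 and 5). Krt8 was not called without IFN-labelled replicate 1, 2 or 3 or untreated replicate 1, 2 or 3 (adjusted p 0.0835 to 0.168). Krt19, of the same family and the same list, went the other way, with 0.0695, 0.151, 0.234, 0.318 and 0.2900 CPM in IFN-labelled libraries, against 0.236, 0.556, 0.592, 0.9401 and 1.55 CPM in untreated libraries (log2 change -1.86 ± 0.53, adjusted p = 0.0309; -2.35 ± 0.67, adjusted p = 0.0257 without replicates 4 and 5). Krt19 was not called without IFN-labelled replicate 1, 2 or 3 or untreated replicate 5 (adjusted p 0.0727 to 0.0898). Il5ra, the interleukin-5 receptor of eosinophils and B-1 cells, had 7.52, 7.69, 7.81, 0.449 and 0.311 CPM in IFN-labelled libraries, against 0.668, 1.08, 1.02, 0.178 and 0.649 CPM in untreated libraries (log2 change 2.72 ± 0.69, adjusted p = 0.0149; 3.41 ± 0.65, adjusted p = 0.000703 without replicates 4 and 5). Il5ra was not called without IFN-labelled replicate 3 (adjusted p 0.0548). Cyp11a1, which makes pregnenolone from cholesterol, had 3.197, 3.41, 2.51, 0.0986 and 0.0104 CPM in IFN-labelled libraries, against 0.0925, 0.166, 0.187, 0.188 and 0.188 CPM in untreated libraries (log2 change 3.48 ± 0.83, adjusted p = 0.00922; 4.20 ± 0.75, adjusted p = 0.000278 without replicates 4 and 5). Scn4a, a sodium channel of muscle, had 12.1, 13.2, 4.62, 0.6900 and 0.642 CPM in IFN-labelled libraries, against 0.7603, 0.986, 0.7002, 0.136 and 0.262 CPM in untreated libraries (log2 change 3.45 ± 0.76, adjusted p = 0.0047; 4.13 ± 0.74, adjusted p = 0.000293 without replicates 4 and 5). Adm, the vasodilator adrenomedullin, was the 1 called member of 27 glycolysis and HIF genes, with 0.625, 0.613, 1.44, 0.0767 and 0.145 CPM in IFN-labelled libraries, against 0.0925, 0.107, 0.0888, 0.09401 and 0.115 CPM in untreated libraries (log2 change 2.53 ± 0.59, adjusted p = 0.00798; 3.15 ± 0.57, adjusted p = 0.00031 without replicates 4 and 5). Adm was not called without IFN-labelled replicate 3 (adjusted p 0.0784). In each of Pigr, Krt18, Krt8, Il5ra, Cyp11a1 and Scn4a, IFN-labelled replicates 4 and 5 were at or near the untreated level.

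Organelle gene lists were mostly level. None of 56 lysosomal genes, 16 cathepsins, 18 V-ATPase subunits, 30 autophagy and TFEB genes or 21 genes of LRRK2 and its Rab substrates was called in either direction, with medians between 0.02 and 0.11, and without IFN-labelled replicates 4 and 5 only 1 autophagy gene was, higher. Of 48 ribosomal protein genes all had a positive change, with a median of 0.22, and 1 was called higher, beside 2.42% of all genes. Without untreated replicate 4, 29 were called higher, where 935 of all 22137 genes were. Of 68 nuclear genes of the respiratory chain 59 had a positive change, with a median of 0.14, and none was called. Without untreated replicate 4, 7 were called higher, beside the same 935 of 22137. The 13 mitochondrially encoded genes all had a negative change, with a median of -0.30. Among them 2 were called lower, beside 3.39% of all genes, or none without IFN-labelled replicates 4 and 5. Of these mt-Nd5, a subunit of complex I, had 809.8, 844, 710.4, 493 and 538 CPM in IFN-labelled libraries, against 1151, 916, 902, 905 and 1312 CPM in untreated libraries. IFN-labelled replicates 4 and 5 were the lowest libraries (log2 change -0.61 ± 0.16, adjusted p = 0.017), and without them the change was not called (log2 change -0.40, adjusted p = 0.157), and the call was also lost without IFN-labelled replicate 5 or untreated replicate 1 (adjusted p 0.0503 to 0.074). Its neighbour mt-Nd4l, also of complex I, had 197, 206, 171, 125 and 138 CPM in IFN-labelled libraries, against 376, 270.2, 249, 191 and 265 CPM in untreated libraries (log2 change -0.69 ± 0.18, adjusted p = 0.0157; -0.50 ± 0.20, adjusted p = 0.119 without replicates 4 and 5). mt-Nd4l was not called without untreated replicate 1 (adjusted p 0.139).

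Markers of resident large peritoneal macrophages differed between IFN-labelled libraries. The sum of the 15 markers was 368, 379, 416, 81.2 and 80.8 CPM in IFN-labelled replicates 1 to 5, against 209 to 254 CPM in untreated libraries. None was called with all libraries (median 0.06), and 1 was called higher without IFN-labelled replicates 4 and 5 (median 0.53). That gene was Icam2, an adhesion molecule of these cells, with 13.5, 15.4, 13.8, 6.397 and 6.81 CPM in IFN-labelled libraries, against 5.57, 7.06, 7.28, 10.54 and 9.65 CPM in untreated libraries (log2 change 0.48 ± 0.23, adjusted p = 0.199; 0.83 ± 0.23, adjusted p = 0.0253 without replicates 4 and 5). Replicates 4 and 5 were at the untreated level and replicates 1 to 3 above it.

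**Figure D5:**
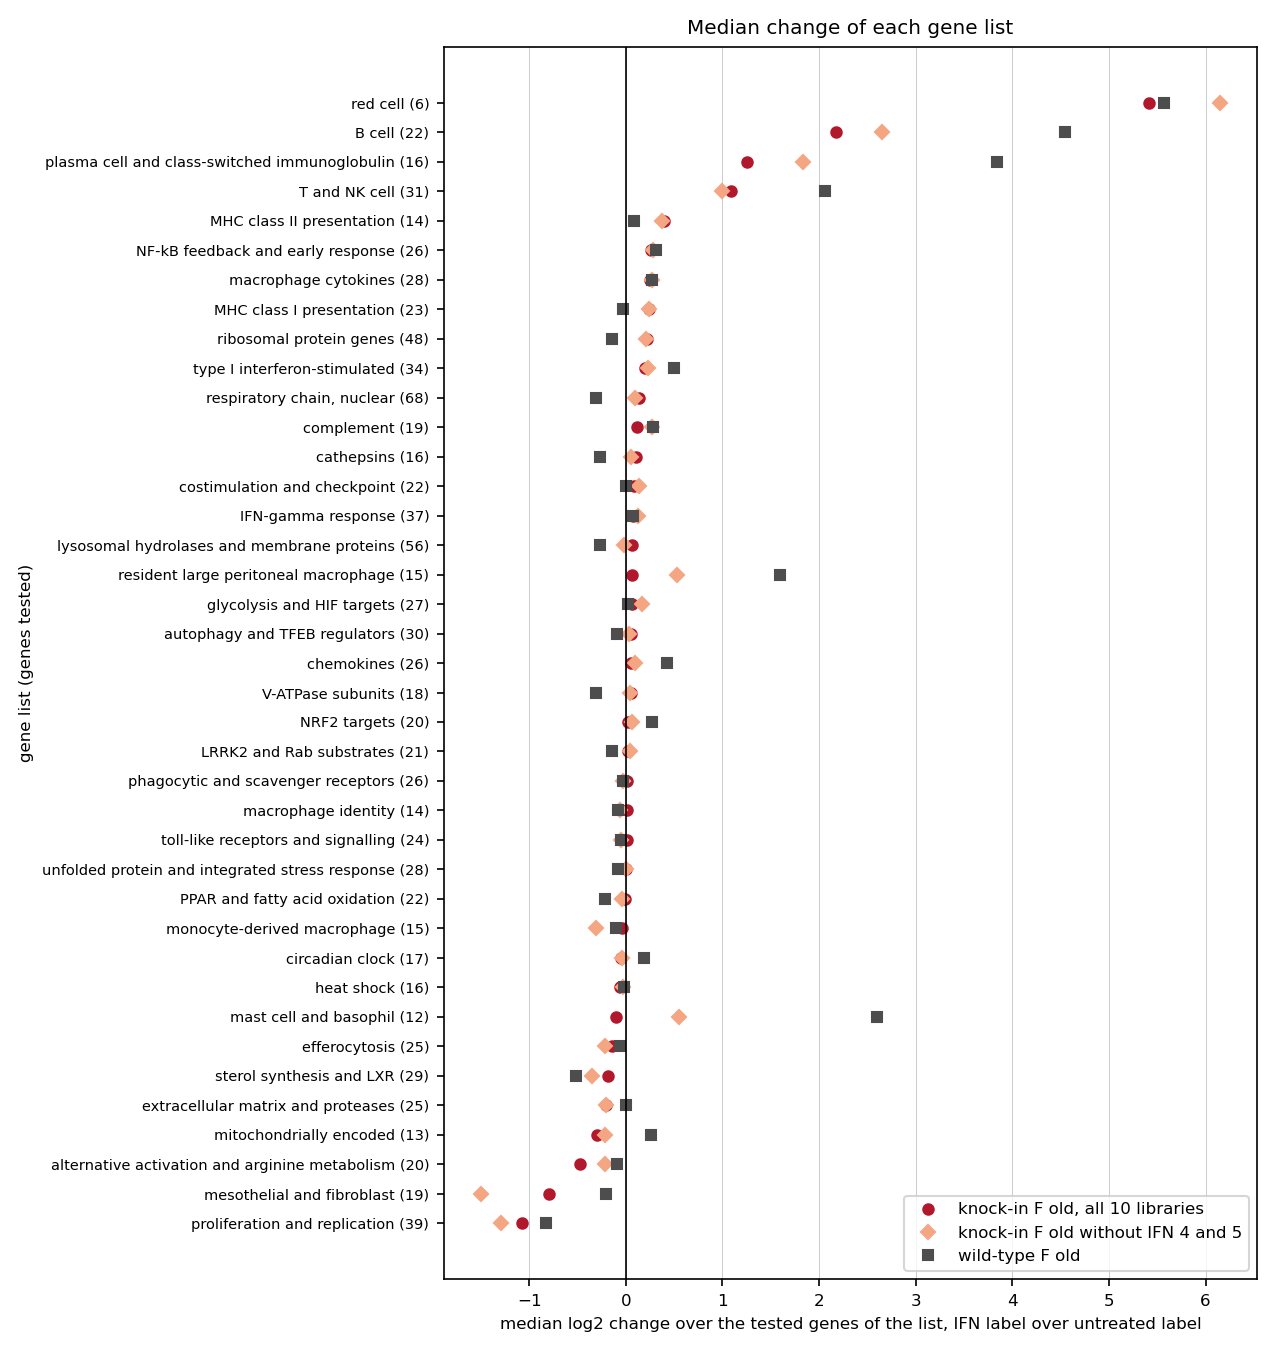
Median log2 change of each gene list under the IFN label in knock-in F old with all libraries, in knock-in F old without IFN-labelled replicates 4 and 5, and in wild-type F old. The red cell list lies at 5.41, 6.15 and 5.57, the B cell list at 2.18, 2.65 and 4.55, and the proliferation list at -1.07, -1.29 and -0.83.

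The label effect was then set against that of wild-type F old libraries, which share no library with it. In wild-type females 4252 genes were called, 1929 higher and 2323 lower. The difference of the label effects, knock-in minus wild-type, was called higher in 1404 genes (6.34%) and lower in 987 (4.46%), and in 538 and 388 without IFN-labelled replicates 4 and 5. The split turned with other size factors, to 955 higher and 1332 lower with RLE factors and 1324 and 1725 in DESeq2. No difference was called when libraries with an index under 5 were summed, and the count of 2391 ranged from 584 without knock-in untreated replicate 1 to 3830 without knock-in untreated replicate 4.

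Some B cell and resident macrophage genes had a smaller label effect in knock-in than in wild-type females. The difference was called lower in 8 of 22 B cell markers and higher in 1, with a median of -2.16, and lower in 7 of 15 resident macrophage markers, with a median of -1.37. All genes gave 4.46% lower and 6.34% higher. Without IFN-labelled replicates 4 and 5 the counts were 2 lower and 1 higher of 22 and 0 of 15. In that fit 388 of all 22132 genes were called lower and 538 higher. Without wild-type IFN-labelled replicate 2 none was called lower in either list. Cd79a had a label effect of 2.34 ± 0.55 in knock-in females and 4.84 ± 0.62 in wild-type females, a difference of -2.5 ± 0.76, adjusted p = 0.0288 (-1.95, adjusted p = 0.112 without replicates 4 and 5). Serpinb2, a protease inhibitor of resident macrophages, averaged 18.5 ± 36.1 CPM in IFN-labelled wild-type females and 0.976 ± 0.334 CPM in untreated wild-type females (SD, n = 5 each), with a standard deviation above the mean in the IFN-labelled libraries. In knock-in females it had 1.66, 1.82, 2.07, 0.515 and 0.383 CPM in IFN-labelled libraries, against 0.853, 0.4100, 0.473, 2.82 and 2.62 CPM in untreated libraries, a difference in label effect of -4.39 ± 1.16, adjusted p = 0.0168 (-3.87, adjusted p = 0.0593 without replicates 4 and 5). Alox15, the lipoxygenase of resident macrophages, averaged 26.4 ± 37.8 CPM in IFN-labelled wild-type females and 4.61 ± 1.96 CPM in untreated wild-type females (SD, n = 5 each). In knock-in females it had 5.54, 5.42, 6.78, 1.88 and 1.398 CPM in IFN-labelled libraries, against 3.53, 4.64, 5.14, 9.17 and 14.9 CPM in untreated libraries (-3.34 ± 0.96, adjusted p = 0.0224; -2.85, adjusted p = 0.0836 without replicates 4 and 5).

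Respiratory chain genes differed in the other direction. Of 68 nuclear genes 56 had a difference called higher and none lower, beside 6.34% and 4.46% of all genes, with a median of 0.44. In wild-type females 59 were called lower, beside 2323 of all 22147 genes, and in knock-in females none was. The count of 56 was 16 without IFN-labelled replicates 4 and 5, 21 without knock-in untreated replicate 1, 7 without wild-type IFN-labelled replicate 2 and 0 when libraries with an index under 5 were summed. Ribosomal protein genes (12 of 48 higher), lysosomal genes (10 of 56), V-ATPase subunits (6 of 18) and class I genes (5 of 23) went the same way with none lower, while 5 of 13 mitochondrially encoded genes were called lower. Those counts were 3, 7, 4, 0 and 1 without IFN-labelled replicates 4 and 5, beside 538 higher and 388 lower of all 22132 genes. Without knock-in untreated replicate 1 none of the ribosomal or class I genes had a called difference, and with RLE size factors 4 and 2 had; without wild-type IFN-labelled replicate 2 it was called in 3 lysosomal genes and 1 V-ATPase subunit. H2-D1 had a difference of 0.43 ± 0.13, adjusted p = 0.0243 (0.43, adjusted p = 0.0572 without replicates 4 and 5). For mt-Nd5 the difference was -0.96 ± 0.22, adjusted p = 0.0134 (-0.75, adjusted p = 0.05 without replicates 4 and 5), and for mt-Nd4l it was -1.09 ± 0.25, adjusted p = 0.0134 (-0.90, adjusted p = 0.0449 without replicates 4 and 5).

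The largest differences between the genotypes concerned few transcripts. Gpr34, a lysophosphatidylserine receptor of macrophages, had 1.22, 1.33, 2.68, 0.493 and 0.394 CPM in IFN-labelled libraries, against 0.247, 0.264, 0.266, 0.418 and 0.429 CPM in untreated libraries, and IFN-labelled replicate 3 was highest. Its label effect was 1.91 ± 0.35 in knock-in and 0.29 ± 0.35 in wild-type females (difference 1.62 ± 0.49, adjusted p = 0.0288; 2.13, adjusted p = 0.0355 without replicates 4 and 5). The transcription factor Pou3f1 (1.5 ± 0.42, adjusted p = 0.0216; 1.38, adjusted p = 0.0627 without replicates 4 and 5), the orphan receptor Gprc5c (1.31 ± 0.39, adjusted p = 0.0261; 1.43, adjusted p = 0.0445 without replicates 4 and 5), the regulator Trim29 (1.13 ± 0.35, adjusted p = 0.0298; 1.33, adjusted p = 0.0413 without replicates 4 and 5) and the co-activator Cited4 (1.25 ± 0.41, adjusted p = 0.0398; 1.05, adjusted p = 0.132 without replicates 4 and 5) were also among the 5 largest positive differences. In Pou3f1 and Trim29 the label effect in wild-type females was negative, at -1.68 ± 0.31 and -1.52 ± 0.25, and that in knock-in females was not called. The calcium channel gene Cacna1h (-5.03 ± 1.56, adjusted p = 0.032; -4.74, adjusted p = 0.0755 without replicates 4 and 5), the platelet collagen receptor Gp6 (-5.00 ± 1.28, adjusted p = 0.016; -4.74, adjusted p = 0.0471 without replicates 4 and 5) and Tph1, which starts serotonin synthesis (-4.72 ± 1.30, adjusted p = 0.0189; -4.04, adjusted p = 0.0629 without replicates 4 and 5), were at most 0.189 CPM in any of the 10 knock-in libraries. Tph1 averaged 1.74 ± 2.33 CPM in IFN-labelled wild-type females and 0.08102 ± 0.0568 CPM in untreated wild-type females (SD, n = 5 each).

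No difference between the genotypes was called in cell cycle genes, Mgl2 or Klf2. The proliferation list had no called difference, with a median label effect of -1.07 in knock-in and -0.83 in wild-type females, where 27 of 39 were called lower. Among all 22147 genes 2323 were called lower in wild-type females. Mgl2 had a label effect of -2.06 ± 0.33 in knock-in and -2.03 ± 0.34 in wild-type females, a difference of -0.03 ± 0.46, adjusted p = 0.986. Klf2 had 0.93 ± 0.19 and 0.62 ± 0.19, a difference of 0.31 ± 0.26, adjusted p = 0.476. A difference that misses the threshold does not show equal effects.

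Against knock-in M old libraries no difference in label effect was called in edgeR, while 1560 genes had an unadjusted p under 0.05 and DESeq2 called 14. Without IFN-labelled replicates 4 and 5 of the females 6 were called, all higher. In the males themselves the label was called in 23 genes, 14 higher and 9 lower. The proliferation list had a median label effect of -1.07 in females and -0.38 in males, and the B cell list 2.18 and 1.81.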

How the data were processed

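RNA of adherent peritoneal macrophages was sequenced as polyadenylated RNA with a directional kit, per the labels' protocols. The authors deposited raw read counts per gene for 63 libraries, 1 column a library, and STAR 2.7.9a, DESeq2 1.40.2 and build GRCm39 are named in the submitters' processing notes. No source used here names the counter or its strand setting. A table of FPKM values was not used.

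Counts were fitted in edgeR 4.0.16 (R 4.3.3) with 1 coefficient for each of 16 groups over all 63 libraries, TMM factors (0.935 to 1.07 in the 10 libraries), edgeR's filter on low counts and the quasi-likelihood F test, adjusted by Benjamini-Hochberg over 22147 genes and called at 0.05. DESeq2 1.42.0 was an alternative. Differences of label effects were tested as contrasts in the same fit. The test was checked on simulated counts drawn independently for each library. It recovered 68.7% of 1.5-fold and 94% of 2-fold changes and called 6 of 21584 unchanged genes. Close libraries, such as those found under the IFN label, were not simulated, so the check does not cover them. The tested genes held 99.992% of counts. Which genes the depth limits was not tested. Gene symbols were found for 52073 of 56748 gene IDs.

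The comparison, the gene lists and their members were chosen with earlier results of these data known. The genes named are those always shown, up to 15 each way with the largest called change and a mean of at least 1 CPM, with and without IFN-labelled replicates 4 and 5, up to 4 called members a list and up to 5 each way of a difference. Not all of these are given values, and Mcm2, Mki67, Top2a, Psmb8, Klf4, H2-Aa, Cd74, Socs3, Retnla, Ccl24, Jchain, Cd8a, Fcer2a and Cd37 were added after their values were seen. Alternatives are listed in the closing section. Sums of libraries with an index under 10 and fits of some replicates only were added after seeing the data.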

Additional observations from a re-analysis of the deposited data

Results flagged for a closer look

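In groups of 5 libraries a library was singled out when its gap to the nearest other, over the whole range, passed Dixon's critical value of 0.71. Of 208 groups of named genes 10 had such a library, and chance alone gives about 1 in 20 groups. IFN-labelled replicate 3 stood apart at 22.6 CPM in Sesn2, where the other IFN-labelled libraries held 20.7 to 21.2 CPM, at 20.5 CPM in Ebi3 (13.9 to 15.5 CPM) and at 6.36 CPM in Trpm5 (0.0329 to 1.7 CPM). Untreated replicate 4 stood apart at 3610 CPM in Lpl (2720 to 2980 CPM in the other untreated libraries) and at 4.65 CPM in Ccl24 (1.68 to 2.38 CPM). Untreated replicate 1 stood apart with globin RNA, at 4.68 CPM in Hba-a1 (0.602 to 1.35 CPM), 2.26 CPM in Hba-a2 (0.266 to 0.721 CPM) and 0.544 CPM in Hbb-bt (0.0888 to 0.219 CPM). It also stood apart at 0.206 CPM in Gnb3 (0.0522 to 0.0942 CPM) and, on the low side, at 0.0925 CPM in Cyp11a1 (0.166 to 0.188 CPM).

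The label effect differed between knock-in F old and wild-type F old libraries in 14 of the genes named, by the edgeR test of the difference itself. On the log2 scale the knock-in effect exceeded the wild-type effect by 1.62 in Gpr34, 1.5 in Pou3f1, 1.31 in Gprc5c, 1.25 in Cited4, 1.13 in Trim29 and 0.43 in H2-D1. The difference, knock-in minus wild-type, was -5.03 in Cacna1h, -5.00 in Gp6, -4.72 in Tph1, -4.39 in Serpinb2, -3.34 in Alox15, -2.5 in Cd79a, -1.09 in mt-Nd4l and -0.96 in mt-Nd5. Every one of these has an adjusted p between 0.0134 and 0.0398. None of the 10 largest was called when libraries with an index under 5 were summed, and Alox15, Serpinb2, Tph1 and Gp6 were not called without wild-type IFN-labelled replicate 2.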

How the results depend on the processing

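The count of 1286 genes called for the label stayed within 1.5 times with RLE size factors (1466, of which 532 higher and 934 lower) and without IFN-labelled replicates 4 and 5 (1464). It was 709 with no filter on low counts, 1983 in DESeq2 (678 higher and 1305 lower), 268 with libraries of an index under 5 summed, 119 in a fit of the 10 libraries alone, 2837 within replicates 1 to 3, 72 within replicates 4 and 5 and 2 with libraries of an index under 10 summed, where fewer libraries are left; the cause was not tested. Leaving out 1 library gave 385 to 1986. The count of 1464 without IFN-labelled replicates 4 and 5 was 644 in a fit of the 8 libraries, 393 with libraries of an index under 5 summed and 410 to 2060 with 1 library left out, among them 640, 592 and 761 without IFN-labelled replicate 1 or 2 or untreated replicate 1. The 2391 differences from wild-type F old were 1516 with no filter, 926 without IFN-labelled replicates 4 and 5, 4036 with knock-in replicates 1 to 3 only, 0 with libraries of an index under 5 or under 10 summed and 584 to 3830 with 1 library left out, among them 624 without wild-type IFN-labelled replicate 2. The 0 differences from knock-in M old were 14 in DESeq2, 6 without IFN-labelled replicates 4 and 5, 5 within replicates 1 to 3 and 0 to 21 with 1 library left out, the most without knock-in M old IFN-labelled replicate 1.

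Replicate numbers were not taken to pair the samples: the deviations of same-numbered libraries correlated at 0.032, 0.184, 0.138, 0.188 and 0.177, and 6 of 10 libraries correlated best with their own number. With the replicate number as a block, 427 genes were called in the 10 libraries and 2902 in the 8 libraries without IFN-labelled replicates 4 and 5.

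Of 104 results on single genes, 92 past the threshold, the settings gave 1555 values on the same side, 631 no longer called, 20 newly called and 34 of the other sign, and no called gene stayed called in every setting. With 1 library left out, 32 of 82 called label effects held in all fits, and IFN-labelled replicate 3 ended the most (40). Leaving out 1 library of a close pair keeps the other in the fit, so these fits do not replace the sums of close libraries. Within replicates 4 and 5 the sign turned in Mzb1 (-0.25), Jchain (-1.90), Hbb-bs (-1.54), Hbb-bt (-1.14), Hba-a1 (-0.98), Hba-a2 (-0.97), Gnb3 (-0.06), Trpm5 (-0.47), Hepacam2 (-0.50), Pigr (-1.01), Krt18 (-1.20), Krt8 (-1.91), Il5ra (-0.10), Cyp11a1 (-1.76), Icam2 (-0.59), Lrrk2 (0.06) and Nos2 (0.48). Nos2 was also positive without IFN-labelled replicates 4 and 5 (0.50), with libraries of an index under 5 summed (0.21) and with the block (0.11), and ranged from -0.46 to 0.23 with 1 library left out. Ddx3y was negative without IFN-labelled replicates 4 and 5 (-2.09), with libraries summed (-0.03), with the block (-0.51, and -2.24 in 8 libraries) and within replicates 1 to 3 (-2.14), and ranged from -0.49 to 0.31 with 1 library left out.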
